A study of Mus musculus with 16 samples.

Results

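The 6 bulk RNA libraries of CD45.2 marrow cells taken at Week2 are described here, out of 16 in the series: 3 labelled Gata2 and 3 labelled WT, each numbered 1 to 3. They were chosen by sample title, and every gene of the count table was read in them. By its own description, the series put a GATA2 haploinsufficient blood system under load by giving few sorted LSK cells, the lineage-negative Sca-1+ Kit+ fraction of marrow that holds the stem cells, to lethally irradiated wild-type hosts. Both groups therefore share the transplant, the irradiated wild-type host and the CD45.2 label. CD45.2 is the allele of the pan-leukocyte protein CD45 by which donor cells are commonly told from CD45.1 hosts. The labels name the other group only as Gata2, with no allele, age or sex given, and they do not say that the replicates came from separate mice, so the p-values below measure the spread between these libraries.

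GATA2 is a zinc-finger transcription factor that binds the DNA letters GATA, is high in stem and early progenitor cells, and gives way to GATA1 as red cell precursors mature. A stem cell transplanted into an emptied marrow first refills the myeloid and erythroid lines and then the B line. Each line leaves its own RNA in a bulk sample: globins and heme enzymes for red cells, granule proteins for neutrophils, immunoglobulin and surrogate light chain genes for B cells. In bulk RNA, fewer cells of a type and less RNA per cell cannot be told apart, here and throughout.

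The 6 libraries held 176933583 to 320717267 counts. They fell into sets of 3 by library name that cut across the labels. The libraries with the names S38 to S40 (WT 2, WT 3 and Gata2 3) carried 0.201% to 0.316% of their counts on gene models of the TEC class, which are models still to be verified by experiment, against 0.0541% to 0.0947% in those with the names S35 to S37 (WT 1, Gata2 1 and Gata2 2). They also carried 6.74 to 11.6 CPM (counts scaled to a common library total) of the neuronal adhesion gene Nlgn1, against 0.369 to 1.19 CPM. Whether the names mark a preparation batch is not given in the sources used here. Gata2 3 was also the one library with high Xist RNA (91.9 CPM) and almost no RNA of the Y-linked Ddx3y (0.0396 CPM). The other 5 had at most 1.55 CPM of Xist and 65 to 113 CPM of Ddx3y. Because each label has libraries in both name sets, the log2 ratio within each set, or a fit with the name set as a covariate, is given below where a result turns on it.

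Checked against its label, the material held RNA of CD45+ cells of many mature lines. Ptprc, which encodes CD45, was read at 642, 720 and 437 CPM in WT 1 to 3 and at 750, 654 and 624 CPM in Gata2 1 to 3. The extraction text of the series speaks of cells negative for lineage markers, but all 6 libraries carried genes of lineage-positive cells. The B cell marker gene Cd79a lay between 647 and 1507 CPM and the neutrophil marker gene Ly6g between 50.1 and 180 CPM. Marker genes of marrow stroma and of endothelium each summed to at most 0.0107% of counts.

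Gata2 itself did not follow its label. It stood at 9.42, 16 and 13.9 CPM in WT 1 to 3 and at 19.9, 10.9 and 11.3 CPM in Gata2 1 to 3. The groups overlapped, with the highest value in Gata2 1 and the lowest in WT 1. The fitted log2 fold change of Gata2 over WT was 0.35 (SE 0.46, adjusted p = 1 by edgeR's quasi-likelihood test), and without Gata2 1 it was -0.30. In the LSK libraries of the series the RNA ran against the label: 628, 786 and 704 CPM under the Gata2 label against 470 and 351 CPM in WT on Day0, and 480 and 699 CPM against 279, 250 and 242 CPM on Day2. Within the Week2 name sets the log2 ratio was 0.71 (S35 to S37) and -0.41 (S38 to S40), so its direction turned between them. The RNA was thus not lower under the Gata2 label throughout, and the group is called by its label only. Of the 37 tested genes that lie within 1 Mb of Gata2 on chromosome 6, 17 reached 5 CPM in at least 2 libraries, 11 with a higher and 6 with a lower fitted value under the Gata2 label. Among them Mgll, the gene of monoglyceride lipase, singled out after its values were seen, had groups that did not overlap, as did 0.644% of all genes tested in that direction (23.4, 33.0 and 22.5 CPM in WT, 19.4, 14.8 and 14.3 CPM under the Gata2 label, log2 fold change -0.54, SE 0.41, adjusted p = 1 in edgeR).

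The make-up of the marrow varied widely from library to library under both labels. Each lineage was read as the share of all counts that fell on a list of its marker genes, and none of the 17 lineage lists had shares that separated the groups (exact permutation p from 0.2 to 1, two-sided, where 0.1 is the smallest that 3 against 3 libraries allow). Late erythroid genes spanned 90.2-fold from the lowest to the highest library and eosinophil genes 13.8-fold. Early granulocyte genes spanned 4.46-fold, late neutrophil genes 3.06-fold and B cell genes 2.28-fold. Of the 255 lineage genes tested, 159 had a positive and 96 a negative log2 fold change and 0 passed the adjusted threshold of 0.05 in edgeR, which called 0% of all 36485 genes tested. Among the 11340 genes of 5 CPM or more in at least 2 libraries, the median log2 fold change was 0.13 and 78.2% lay above 0, so small positive list medians are to be read against that level.

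**Figure D1:**
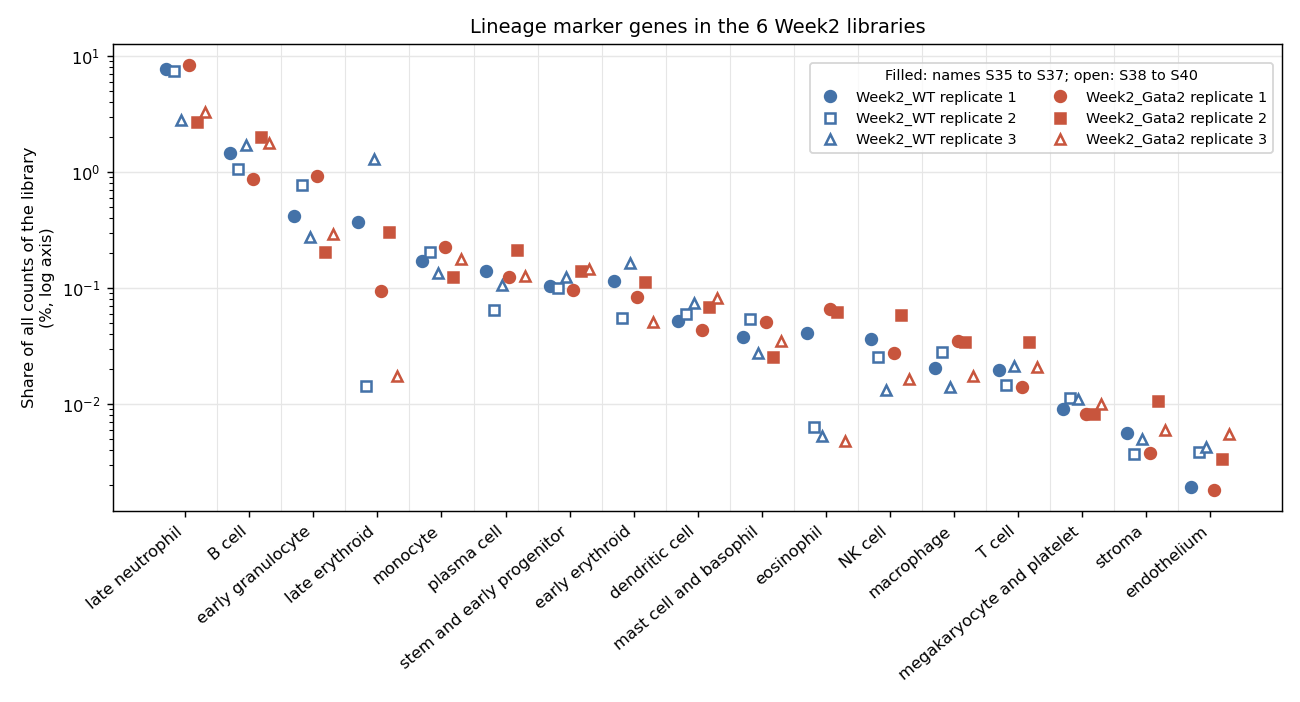
Share of all counts on each lineage's marker genes (percent, log axis), with 1 point per Week2 library, WT and Gata2 label side by side. The late erythroid points run from 0.0143% in WT 2 to 1.29% in WT 3, and in no lineage do the 3 libraries of one label all lie above those of the other.

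Red cell genes set the libraries furthest apart. Late erythroid genes took 0.369%, 0.0143% and 1.29% of counts in WT 1 to 3 and 0.0945%, 0.302% and 0.0175% in Gata2 1 to 3. The lowest libraries were WT 2 and Gata2 3, one of each label, and WT 3 was the highest. Hbb-bs, an adult beta-globin gene, was read at 1275, 12.8 and 4529 CPM in WT and at 291, 1142 and 12.6 CPM under the Gata2 label. Slc4a1, the anion exchanger band 3 of the red cell membrane, stood at 280, 0.613 and 770 CPM in WT and at 61.1, 158 and 1.19 CPM under the Gata2 label. All 22 members were highest in WT 3, the 3 highest libraries were WT 1, WT 3 and Gata2 2 for all 22, and WT 2 and Gata2 3 were the lowest pair for 20 of 22.

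All 22 late erythroid members had a negative log2 fold change, with a median of -1.44 beside 0.00065 over all genes tested, and 0 of 22 had groups that did not overlap, against 1.24% of all genes tested. The ratio of mean shares was -2.02 on the log2 scale (exact permutation p = 0.5). Within the name sets it was -0.90 (S35 to S37) and -5.22 (S38 to S40), the latter resting on WT 3. Hbb-bs itself had a log2 fold change of -1.61 with an SE of 1.61 (adjusted p = 1 in edgeR). With the name set as a covariate the list median was -2.76. Under limma voom with quality weights, the 1 setting in which its sign changed, the list median turned to 0.40, with the libraries weighted from 0.221 (Gata2 3) to 5.13 (Gata2 2).

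The early erythroid genes kept a similar order at a smaller amplitude. Klf1, the transcription factor that switches on adult globin, stood at 49.1, 0.729 and 85.8 CPM in WT and at 25.6, 45.5 and 0.379 CPM under the Gata2 label. Epor, the erythropoietin receptor, stood at 13.4, 0.522 and 26.2 CPM and at 7.17, 11.7 and 0.294 CPM. Gata1, the factor that takes over from GATA2 in this line, was read at 19.0, 1.17 and 29.7 CPM in WT and at 11, 20.2 and 2.31 CPM under the Gata2 label. For each of the 3 genes WT 2 and Gata2 3 were low, the other 4 libraries were higher, and the groups overlapped. The list had 12 of 14 members lower and a median of -0.46 (0.64 in voom with quality weights, -1.64 with the name set as a covariate). Tfrc, the transferrin receptor that dividing cells of other lines also carry, was one of the 2 that were higher (268, 137 and 263 CPM against 219, 359 and 194 CPM). The share of late over early erythroid counts was 3.22, 0.259 and 7.91 in WT and 1.13, 2.68 and 0.344 under the Gata2 label (exact permutation p = 0.5), and the libraries stood in the same order as by late erythroid share.

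Some of these genes have, before their start, DNA letters of the kind that GATA factors read. Windows of 250 bases before the start site are shown for 5 of the erythroid genes and for the basophil gene Prss34, to let the letters be seen beside the levels, from RefSeq on GRCm38.p6, 5′ to 3′ on the gene's strand, with the letters AGATAA or TGATAA, or their reverse complements TTATCT and TTATCA, in capitals. Hbb-bs lies at chr7:103827929-103828178 (minus strand) and has AGATAA 210 bases before the start.
Hbb-bs: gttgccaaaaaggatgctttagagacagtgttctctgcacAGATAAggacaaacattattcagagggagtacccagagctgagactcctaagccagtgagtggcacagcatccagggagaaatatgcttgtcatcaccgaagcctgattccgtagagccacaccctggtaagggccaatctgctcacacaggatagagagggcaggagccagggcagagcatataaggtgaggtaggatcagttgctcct
The window of Hba-a1, an alpha-globin gene, is chr11:32283422-32283671 (plus strand), with TGATAA 183 bases before the start.
Hba-a1: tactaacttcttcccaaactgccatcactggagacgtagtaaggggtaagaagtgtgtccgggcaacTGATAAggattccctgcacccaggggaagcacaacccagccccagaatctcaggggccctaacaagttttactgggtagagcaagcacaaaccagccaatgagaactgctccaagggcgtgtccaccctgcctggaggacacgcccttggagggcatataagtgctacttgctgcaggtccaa
For Alas2, the erythroid enzyme that opens heme synthesis, it is chrX:150547167-150547416 (plus strand), with TTATCT at 86 bases.
Alas2: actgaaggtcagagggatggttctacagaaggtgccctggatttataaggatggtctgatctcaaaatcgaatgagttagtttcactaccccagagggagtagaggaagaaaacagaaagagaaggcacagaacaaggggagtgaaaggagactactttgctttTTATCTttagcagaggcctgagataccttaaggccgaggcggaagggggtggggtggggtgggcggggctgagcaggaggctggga
For Klf1 it is chr8:84901732-84901981 (plus strand), with TTATCA at 80 bases.
Klf1: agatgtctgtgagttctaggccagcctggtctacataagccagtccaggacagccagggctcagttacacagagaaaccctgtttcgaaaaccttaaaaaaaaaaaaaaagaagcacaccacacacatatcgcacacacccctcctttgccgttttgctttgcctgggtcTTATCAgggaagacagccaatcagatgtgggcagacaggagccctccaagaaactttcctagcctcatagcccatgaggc
For Epor it is chr9:21963577-21963826 (minus strand), with TTATCT at 54 bases.
Epor: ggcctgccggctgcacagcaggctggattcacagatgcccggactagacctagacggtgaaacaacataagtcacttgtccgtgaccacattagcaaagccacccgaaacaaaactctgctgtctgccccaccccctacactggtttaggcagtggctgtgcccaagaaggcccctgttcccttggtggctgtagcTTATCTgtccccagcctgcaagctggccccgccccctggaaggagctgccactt
For Prss34, a serine protease of basophils and mast cells, it is chr17:25298144-25298393 (plus strand), with AGATAA at 31 bases.
Prss34: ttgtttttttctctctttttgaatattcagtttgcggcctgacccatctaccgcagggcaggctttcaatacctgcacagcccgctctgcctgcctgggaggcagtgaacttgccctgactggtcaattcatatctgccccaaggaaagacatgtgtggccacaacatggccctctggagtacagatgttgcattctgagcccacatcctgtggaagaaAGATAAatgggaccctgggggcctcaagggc
Either motif, on either strand, was in 16.6% of all 32851 RefSeq promoter windows of this length, in 10 of the 17 windows found for 15 of 22 late erythroid genes, in 6 of 13 found for 11 of 14 early erythroid genes and in 8 of 15 found for 12 of 14 mast cell and basophil genes. The 2 windows found for Gata2 held neither. A match describes letters in a window and does not show that a factor was bound in these cells.

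**Figure D2:**
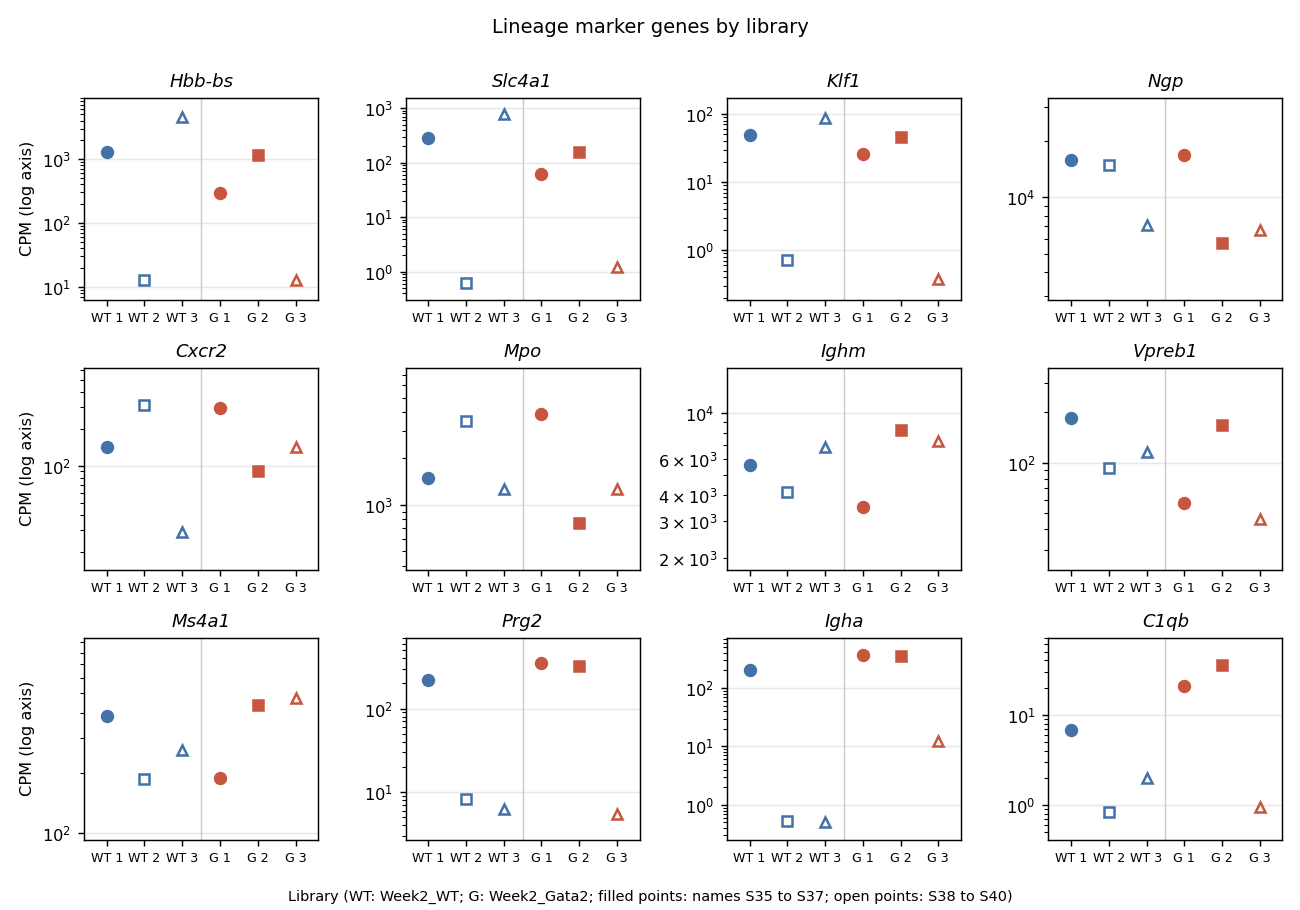
Levels of leading marker genes of the main marrow lineages (CPM, log axis), with 1 point per Week2 library, filled for the names S35 to S37 and open for S38 to S40. Hbb-bs runs from 12.6 CPM in Gata2 3 to 4529 CPM in WT 3, and the WT and Gata2 points overlap for each gene drawn.

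Neutrophil genes made up the largest lineage share in every library. Late neutrophil genes, those of the secondary and tertiary granules and of the mature cell, took 7.74%, 7.34% and 2.79% of counts in WT 1 to 3 and 8.31%, 2.72% and 3.31% in Gata2 1 to 3. The 3 high libraries were WT 1, WT 2 and Gata2 1, and for 15 of the 20 members these same libraries were the 3 highest. Ngp, a granule protein of neutrophil precursors, was read at 15853, 14781 and 7136 CPM in WT and at 16816, 5735 and 6667 CPM under the Gata2 label. S100a8, a subunit of the calprotectin that fills the neutrophil cytosol, was read at 13852, 10372 and 3271 CPM and at 12160, 4481 and 4912 CPM. Of the 20 members 13 had a negative log2 fold change (median -0.14, and 0.21 under RLE scaling), and without Gata2 1 the median was -1.12. Groups that did not overlap were found for 0 of the 20, beside 1.24% of all genes tested.

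Early granulocyte genes, which encode the primary granule proteins of promyelocytes, leaned on 1 library. Their share was 0.417%, 0.779% and 0.273% in WT and 0.921%, 0.206% and 0.293% under the Gata2 label, and 11 of the 12 members were highest in Gata2 1. Ctsg, the granule protease cathepsin G, stood at 147, 215 and 79.7 CPM in WT and at 467, 73.7 and 96.5 CPM under the Gata2 label. Prtn3, the gene of proteinase 3, stood at 374, 513 and 206 CPM and at 1026, 179 and 241 CPM. Both genes were highest in Gata2 1 and lowest in Gata2 2, so the label held both ends of the range. The list median was 0.23 with 10 of 12 members higher, -0.25 with the name set as a covariate and -0.96 without Gata2 1.

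The most mature neutrophil genes followed another order. Cxcr2, the chemokine receptor with which neutrophils leave the marrow, was read at 142, 311 and 28.7 CPM in WT and at 292, 89.7 and 142 CPM under the Gata2 label. Il1b, the cytokine interleukin-1 beta, was read at 23.7, 243 and 6.83 CPM and at 52.6, 60.1 and 63.9 CPM. WT 2 was highest and WT 3 lowest for both. In a ratio formed after the values were seen, the summed level of Cxcr2, Il1b and Mxd1 over that of the granule genes Ltf, Camp, Ngp and Lcn2 was 0.0165, 0.0439 and 0.0154 in WT and 0.0264, 0.0330 and 0.0403 under the Gata2 label, with overlap.

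Eosinophil genes were high in 3 libraries and close to the LSK level in the other 3. Their share was 0.0413%, 0.00633% and 0.00532% in WT and 0.0657%, 0.0621% and 0.00477% under the Gata2 label, and in the Day0 LSK libraries of the series it was 0.00514% to 0.00749%. The high libraries were WT 1, Gata2 1 and Gata2 2, which are the 3 with the names S35 to S37. Prg2, the major basic protein of the eosinophil granule, was read at 221, 8.37 and 6.30 CPM in WT and at 351, 319 and 5.41 CPM under the Gata2 label. Epx, the eosinophil peroxidase, was read at 55.0, 2.94 and 4.14 CPM and at 170, 89.7 and 1.34 CPM. All 10 members had a positive log2 fold change (median 1.20), and 0 of 10 had groups that did not overlap, beside 1.24% of all genes tested. Within the sets by name the log2 ratio of shares was 0.63 (S35 to S37) and -0.29 (S38 to S40), so the direction turned between them, and with the name set as a covariate the list median was -0.06.

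Mast cell and basophil genes, a line in which Gata2 acts, did not differ beyond the spread. Prss34 was read at 87.3, 147 and 120 CPM in WT and at 68.4, 64.9 and 116 CPM under the Gata2 label. Mcpt8, another basophil protease gene, was read at 25.1, 40.2 and 23.5 CPM and at 19.3, 21.9 and 24.2 CPM. The groups overlapped for both, Gata2 1 was the lowest library for 11 of the 14 members, and Tpsb2, a tryptase gene of connective tissue mast cells, stayed at or below 0.236 CPM. The list median was -0.06 (0.02 under RLE scaling), with 6 members higher and 8 lower.

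Stem and progenitor genes were a minor share. They took 0.105%, 0.0996% and 0.125% of counts in WT and 0.0971%, 0.141% and 0.145% under the Gata2 label, against 0.449% to 0.512% in the Day0 LSK libraries, and Sox4, which B cell precursors also express, made up 70.8% of the share. Kit, the stem cell factor receptor, was read at 39.5, 67.1 and 41.9 CPM in WT and at 41.2, 27.6 and 23.9 CPM under the Gata2 label. Hlf, a transcription factor restricted to stem cells and their nearest progeny, was read at 1.58, 1.88 and 1.30 CPM and at 2.57, 0.845 and 2.32 CPM. Ly6a, which encodes Sca-1, was read at 25.2, 8.04 and 11.4 CPM and at 52.4, 49.0 and 11 CPM. None of the 3 separated the labels. Among the 16 factors that work beside GATA proteins, Lyl1 had groups that did not overlap, with 27.1, 27.6 and 29.7 CPM in WT against 26.4, 23.7 and 26.2 CPM and a log2 fold change of -0.02, as did 0.644% of all genes tested in that direction, while Tal1, Lmo2, Fli1, Erg and Runx1 overlapped. Megakaryocyte and platelet genes summed to between 0.0082% and 0.0112% of counts, and Pf4, platelet factor 4, to at most 3.28 CPM.

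B cell genes were lowest in the libraries with the most early granulocyte RNA. They took 1.47%, 1.05% and 1.72% of counts in WT and 0.873%, 1.99% and 1.79% under the Gata2 label, with WT 2 and Gata2 1 the lowest pair for 16 of 19 members. Cd79a, a signalling chain of the B cell receptor, was read at 1238, 844 and 1507 CPM in WT and at 647, 1230 and 1409 CPM under the Gata2 label. Pax5, the factor that holds B cell identity, was read at 101, 86.3 and 130 CPM and at 65.4, 109 and 142 CPM. The groups overlapped for each, and the list median of 0.05 (-0.05 under upper quartile scaling) lay below the 0.13 of genes at 5 CPM or more.

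Within the B line, single genes of early precursors and of later cells overlapped between the labels. The summed level of Vpreb1 and Igll1 (the surrogate light chain), Rag1 and Rag2 (the recombinase) and Dntt (the enzyme that adds bases at joints) was set over that of Ms4a1 and Ighd, which later B cells carry. This ratio, formed after the values were seen and therefore given with no test, was 1.74, 2.02 and 1.85 in WT and 1.27, 1.60 and 0.712 under the Gata2 label. All 3 Gata2 libraries lay below all 3 WT libraries, with the lowest value in Gata2 3. Vpreb1 stood at 184, 92.4 and 116 CPM in WT and at 57.4, 168 and 45.8 CPM under the Gata2 label, so the gene alone overlapped. Ms4a1, which encodes CD20, stood at 383, 185 and 260 CPM and at 188, 438 and 474 CPM and overlapped as well.

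Among plasma cell genes, heavy chain and Jchain RNA varied by orders of magnitude, while the median member spanned 3.17-fold and the list share 3.31-fold. Igha, the heavy chain of IgA, was read at 203, 0.522 and 0.510 CPM in WT and at 361, 350 and 12.2 CPM under the Gata2 label. Jchain, which links IgA and IgM units, was read at 51.7, 0.724 and 1.20 CPM and at 65.3, 350 and 4.88 CPM. WT 1, Gata2 1 and Gata2 2 were high for both, the same 3 libraries by name as for eosinophil genes. Ighg3, the heavy chain of IgG3, picked out after its values were seen, was read at 0.125, 0.0621 and 0.0662 CPM in WT and at 5.42, 47.7 and 0.192 CPM under the Gata2 label, and its groups did not overlap (log2 fold change 7.87, SE 1.75, adjusted p = 1 in edgeR). Of the 12 plasma cell members 11 were higher (median 0.43), and the shares overlapped (exact permutation p = 0.3).

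T and NK cell genes were low, and highest in Gata2 2. Ncr1, the NK receptor NKp46, was read at 22.9, 12.7 and 8 CPM in WT and at 9.57, 41.4 and 12.2 CPM under the Gata2 label, and Gata2 2 was the highest library for 11 of 12 NK members and 11 of 16 T members. All 12 NK members were higher (median 0.58), but the median was -0.56 without Gata2 2 and -0.03 with the name set as a covariate. Trbc2, a T cell receptor constant gene, was read at 3.81, 1.92 and 0.767 CPM in WT and at 3.21, 9.15 and 1.57 CPM under the Gata2 label, and the T list had 13 of 16 members higher (median 0.37, and 0.03 without Gata2 2). Bcl11b, a T cell commitment factor, had groups that did not overlap at a level of at most 3.02 CPM (1.36, 1.65 and 1.11 CPM against 2.21, 3.02 and 2.32 CPM, log2 fold change 0.98, SE 0.56, adjusted p = 1 in edgeR). It was the 1 such member of 16, beside 0.598% of all genes tested that were higher in this way.

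Of the macrophage list, 1 member separated the labels. Mrc1, the macrophage mannose receptor, was read at 4.49, 4.35 and 4.37 CPM in WT and at 6.59, 14.8 and 5.27 CPM under the Gata2 label. The lowest Gata2 value exceeded the highest WT value, and Gata2 2 stood apart from the rest. These levels carry no TMM scaling. Division by the TMM factors of the edgeR fit, 0.792 for WT 1 and 1.43 for Gata2 3, would put WT 1 above Gata2 3. Division by those of a fit with a filter of 5 CPM, 0.986 for WT 1 and 1.06 for Gata2 3, would not. The main fit put the difference at 1.18 on the log2 scale, with an adjusted p of 1 in edgeR. This non-overlap, in 1 of 16 members, stands beside a background in which 0.598% of all genes tested, and 1.16% of genes at 5 CPM or more, were higher in this way.

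All 16 macrophage members had a positive log2 fold change (median 0.97), as did 13 of 14 monocyte members (median 0.34), beside 78.2% of genes at 5 CPM or more. The monocyte median was 0.094 with the name set as a covariate and 0.16 with a filter of 5 CPM. Monocyte genes took a mean share of 0.17% in WT and 0.176% under the Gata2 label (exact permutation p = 0.9). The C1q chains, products of mature macrophages, did not separate the labels. C1qa, a chain of complement C1q, was read at 3.77, 0.584 and 2.04 CPM in WT and at 11.4, 19.4 and 0.961 CPM under the Gata2 label, and C1qb and C1qc were likewise low in Gata2 3. Adgre1, which encodes F4/80, was read at 16, 21.4 and 13.1 CPM and at 38.9, 25.3 and 21.3 CPM, where Gata2 3 lay just below WT 2. The share of macrophage counts had a log2 ratio of 0.77 among S35 to S37 and of -0.28 among S38 to S40. Slc40a1 made up 50.0% of that share, at 118, 187 and 56.8 CPM in WT and at 200, 104 and 78.7 CPM under the Gata2 label. The list median, which weighs members alike, was 0.61 with the name set as a covariate. Without Gata2 2 the list median was 0.50.

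Some genes outside the lists, named for their low p or after their values were seen and so no evidence of a phagocyte theme, also had separate groups. Cd300e, a receptor of nonclassical monocytes, was read at 2.46, 3.98 and 3.22 CPM in WT and at 6.88, 7.96 and 5.26 CPM under the Gata2 label (log2 fold change 1.26, SE 0.48). Adgre4, an adhesion receptor of the F4/80 family, was read at 12.7, 15.8 and 12.6 CPM and at 24.6, 31.1 and 20 CPM (1.05, SE 0.41). Tlr1, a receptor for bacterial lipopeptides, was read at 8.57, 8.26 and 7.77 CPM and at 17.9, 12.3 and 13 CPM (0.96, SE 0.44). All 3 were above WT in each library labelled Gata2, and each has an adjusted p of 1 in edgeR. Clec4a3, a C-type lectin receptor of myeloid cells picked after its values were seen, stood at 14.3, 14.1 and 12.3 CPM against 32.0, 22.6 and 17.0 CPM. Lpl, lipoprotein lipase, stood at 11.2, 13.9 and 14.2 CPM against 20.6, 30.1 and 19.3 CPM (1.003, SE 0.39). The log2 ratio, positive in both name sets by the choice of non-overlapping genes, was larger within S35 to S37 than within S38 to S40 for Cd300e (1.59 and 0.55), Adgre4 (1.13 and 0.50), Tlr1 (0.82 and 0.70) and Lpl (1.18 and 0.46).

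Ctsk and C4b spread more widely. Ctsk, the collagen-degrading cathepsin K of osteoclasts and some macrophages, was read at 0.868, 1.05 and 1.31 CPM in WT and at 6.35, 24 and 1.82 CPM under the Gata2 label. It had the lowest p of the 24 (log2 fold change 3.60, SE 0.90, adjusted p = 1 in edgeR), and most of its size came from Gata2 1 and Gata2 2. C4b, complement component 4, was read at 1.52, 1.54 and 2.15 CPM and at 13.1, 3.63 and 2.96 CPM (2.26, SE 0.75). In both the groups did not overlap, with Gata2 3 the lowest of its label.

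**Figure D3:**
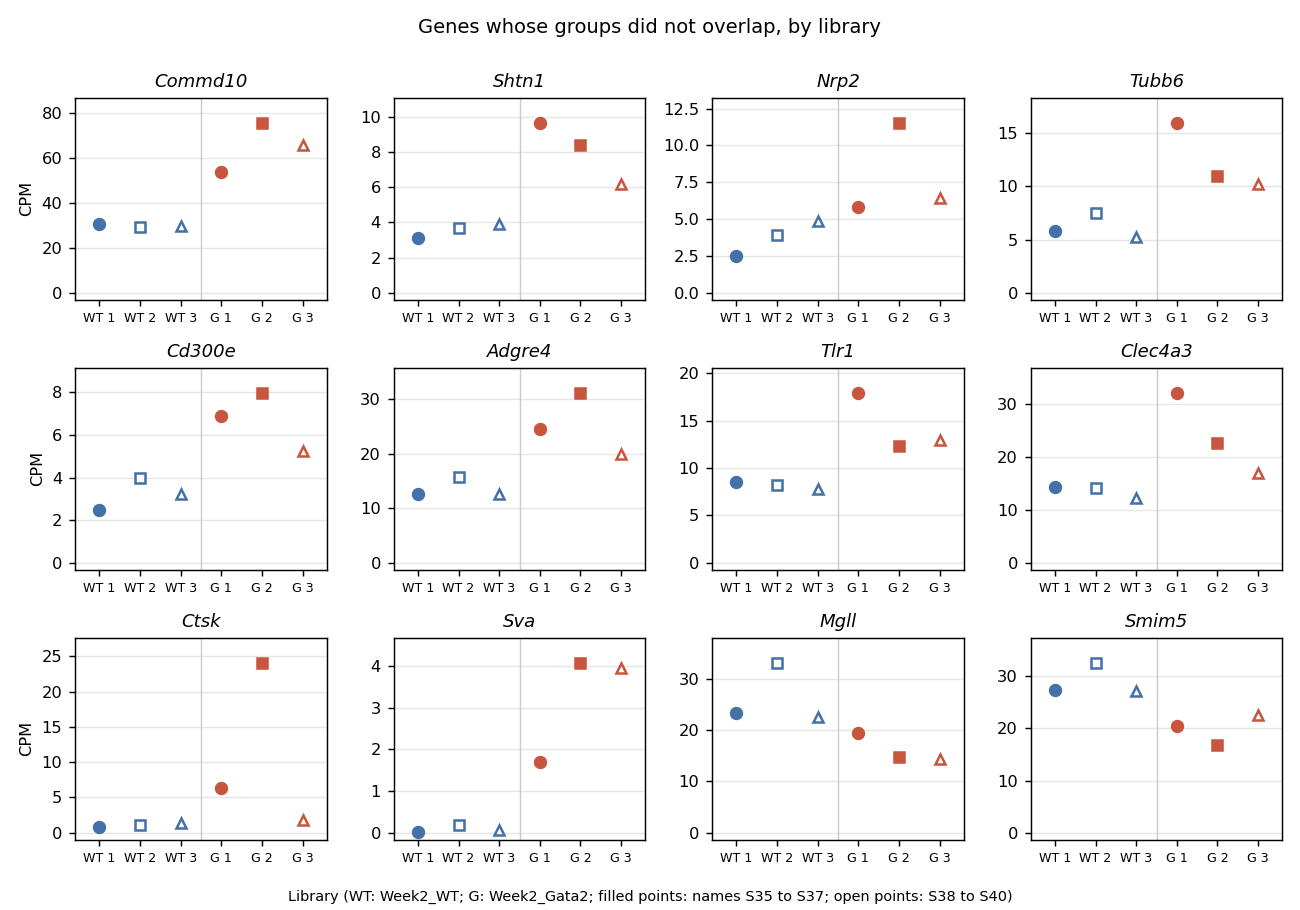
Levels (CPM without TMM scaling, linear axes) of genes whose libraries labelled Gata2 all lay above or all below those labelled WT, with 1 point per library, filled for the names S35 to S37 and open for S38 to S40. Commd10 sits at 29.2 to 30.5 CPM in WT and at 54.0 to 75.6 CPM under the Gata2 label.

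Across all genes, no gene was called. At an unadjusted p below 0.05 edgeR had 87 genes, 0.238% of those tested, 36 higher (0.0987%) and 51 lower (0.14%) under the Gata2 label. Groups that did not overlap were found for 453 genes, 1.24% of those tested, 218 higher (0.598%) and 235 lower (0.644%). In the 34 lists together 12 of 509 genes (2.36%) were higher and 2 (0.393%) lower in this way, against 1.16% and 0.547% of genes at 5 CPM or more. All these counts use CPM without TMM scaling, and with it 246 genes (0.674%) were higher and 269 (0.737%) lower. Division by the edgeR fit's TMM factors would make many groups named here overlap. These are Mrc1, Bcl11b, Ighg3, Adgre4, Tlr1, Clec4a3, Lpl, Tubb6, Mgll, Lyl1, Smim5, Hspa5 and Hsp90b1. Commd10, Sva, Shtn1, Nrp2, Cd300e, Ctsk, C4b and Apol11a would stay apart. Which groups overlap depends on the factors, which ran from 0.728 to 1.43 here and from 0.924 to 1.06 with a filter of 5 CPM. Under the latter Mrc1 and Tlr1, for example, would stay apart, and Hsp90b1 would overlap. With the spread of these libraries, a simulation of 4-fold changes in 200 of the 36485 genes gave calls for 4.5% of them, so the design could miss changes of that size. Of the 24 named genes of lowest p, 20 were higher and 4 lower under the Gata2 label. The level of 5 CPM applied to the higher group, so genes such as Ctsk, C4b and Cd300e entered through the Gata2 label alone, and the split says nothing of genes in general.

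**Figure D4:**
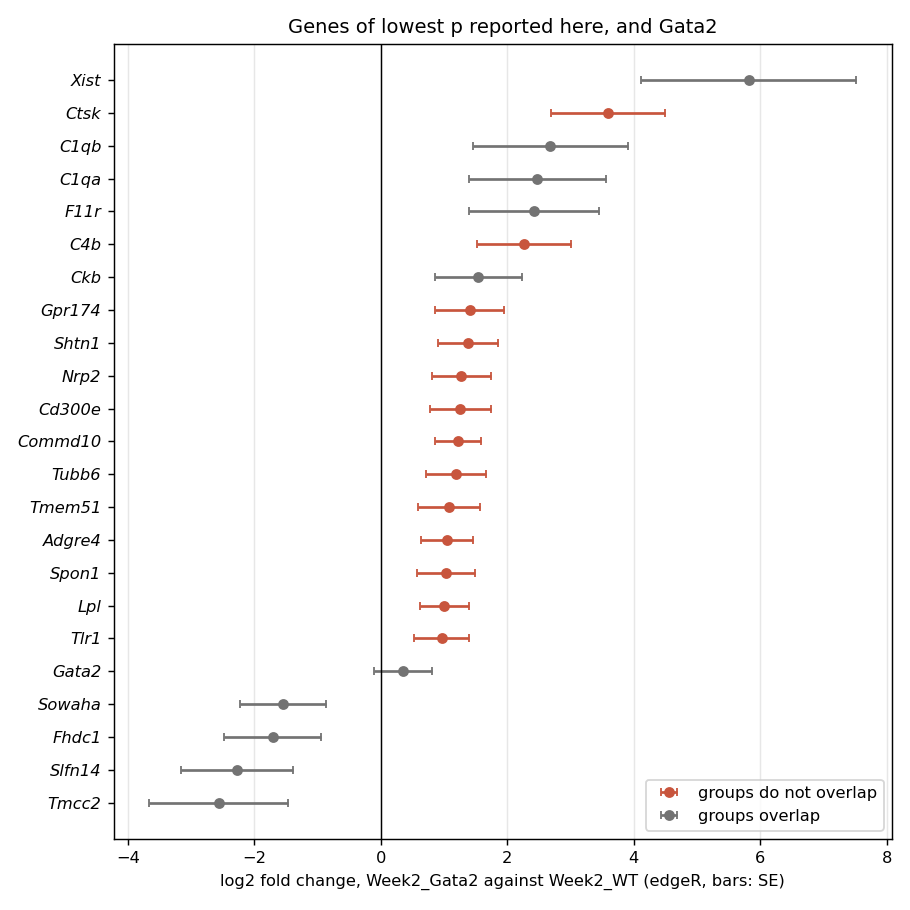
Log2 fold change, Gata2 label over WT, with its standard error, for Gata2 and for 22 of the 24 genes of lowest p in edgeR, those reported here. Of the 22, 18 lie above 0 and 4 below, and none passed the adjusted threshold of 0.05.

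Commd10 separated the labels with the smallest spread within each. Commd10, a member of the COMMD family that acts in the sorting of membrane proteins, lies at chr18:46958816-47234284 (GRCm38, plus strand). It was read at 30.5, 29.2 and 30 CPM in WT and at 54.0, 75.6 and 66.1 CPM under the Gata2 label. The WT libraries lay close together, and the lowest Gata2 library was well above them. The fit put the difference at 1.22 on the log2 scale (SE 0.36, adjusted p = 1 by edgeR), with 1.09 within S35 to S37 and 1.16 within S38 to S40 (positive in both by the lack of overlap). Over the 19 other settings of the fit tried it ran from 0.97 to 1.72. These settings reuse the same libraries and the gene was named for its low p, so their shared sign adds no support. In the LSK libraries of the series the Gata2 label stood at 50.7, 43.8 and 42.9 CPM on Day0 and at 51.2 and 41.1 CPM on Day2. LSK libraries labelled WT stood at 54.5 and 24.3 CPM on Day0 and at 31.3, 36.2 and 33.9 CPM on Day2, so 1 of these 5 lay with the Gata2 label.

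Sva, a gene of seminal and salivary secretion at chr6:42038394-42042851, was read in WT at 0.0139, 0.190 and 0.0545 CPM (4, 46 and 14 counts) and under the Gata2 label at 1.70, 4.07 and 3.96 CPM. It was picked after its values were seen. The groups did not overlap, with a fitted difference of 5.37 on the log2 scale (SE 0.95, adjusted p = 1 by edgeR and 9.57e-10 by DESeq2). It was the one gene that DESeq2 called. In LSK cells it stood at 2.48, 2.35 and 2.02 CPM under the Gata2 label and at 2.75 and 0 CPM in WT on Day0, and at 2.44 and 1.05 CPM against 0, 0 and 0 CPM on Day2. The WT library of Day0 with Sva at 2.75 CPM is the one with Commd10 at 54.5 CPM.

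**Figure D5:**
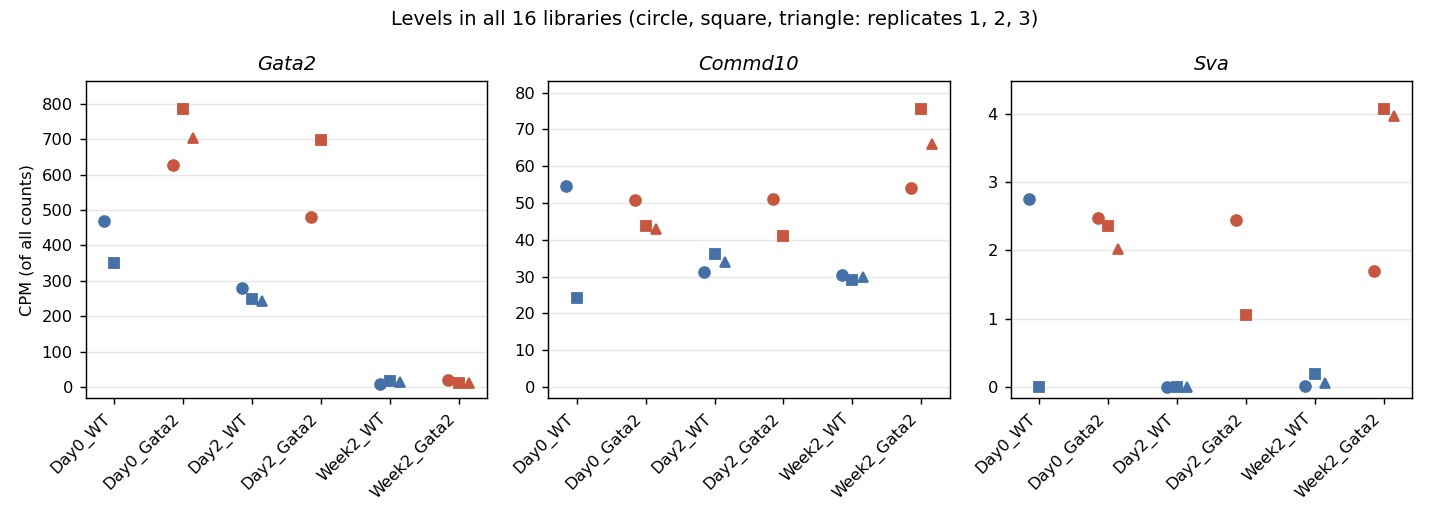
Levels (CPM, linear axes) of Gata2, Commd10 and Sva in all 16 libraries of the series, by group, with 1 point per library, blue for WT and red for the Gata2 label. Gata2 stands at 480 to 786 CPM under the Gata2 label and at 242 to 470 CPM under WT in LSK cells, and at 9.42 to 19.9 CPM in Week2 marrow, and at Week2 the Commd10 and Sva points of the Gata2 label lie above those of WT.

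Shtn1, Nrp2 and Tubb6 were further genes of the 24 with separate groups. Shtn1, which encodes the axon growth protein shootin 1, was read at 3.12, 3.71 and 3.94 CPM in WT and at 9.64, 8.43 and 6.18 CPM under the Gata2 label (log2 fold change 1.38, SE 0.48). Nrp2, a receptor for semaphorins and VEGF, was read at 2.51, 3.92 and 4.90 CPM and at 5.83, 11.5 and 6.44 CPM (1.27, SE 0.47). Tubb6, a beta-tubulin, was read at 5.81, 7.48 and 5.21 CPM and at 15.9, 11 and 10.2 CPM (1.19, SE 0.47). All 3 were higher in every library labelled Gata2, each with an adjusted p of 1 in edgeR.

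The 4 lower genes among the 24 went with WT 3. Tmcc2, a late erythroid membrane gene, was read at 49.6, 4.43 and 256 CPM in WT and at 10.5, 23.7 and 6.09 CPM under the Gata2 label. Slfn14, a ribosome-associated nuclease of the red cell and platelet lines, was read at 5.04, 0.774 and 20 CPM and at 0.998, 1.97 and 1.61 CPM. Sowaha and Fhdc1 were likewise highest in WT 3, at 22 and 29.9 CPM, and all 4 groups overlapped through WT 2. Lower genes without overlap, picked after their values were seen, were Smim5 (27.4, 32.5 and 27.2 CPM against 20.5, 16.8 and 22.5 CPM, log2 fold change -0.44, SE 0.35) and Apol11a (1.89, 0.592 and 6.22 CPM against 0.193, 0.190 and 0.435 CPM, -3.32, SE 0.84). Both have an adjusted p of 1 in edgeR.

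Among 17 lists of cell programs, the share of 1 list separated the labels. Genes of the unfolded protein response and amino acid stress took 0.338%, 0.303% and 0.318% of counts in WT and 0.388%, 0.385% and 0.382% under the Gata2 label (exact permutation p = 0.1, the smallest possible, unadjusted over the 34 lists). Hspa5, the chaperone BiP of the endoplasmic reticulum, was read at 810, 762 and 640 CPM in WT and at 1007, 868 and 935 CPM under the Gata2 label. Hsp90b1, its partner GRP94, was read at 473, 322 and 433 CPM and at 482, 648 and 478 CPM. Both were above WT in every library labelled Gata2 (log2 fold changes 0.44 and 0.49, adjusted p = 1 in edgeR). The shares and levels carry no TMM scaling. Division by its factors (0.792 in WT 1, 1.43 in Gata2 3) would put WT 1 above Gata2 3 for the list share and for both genes. The factors with a filter of 5 CPM (0.986 in WT 1, 1.06 in Gata2 3) would do so for Hsp90b1 but not for the list share or Hspa5. The stress factors of the same list, Atf4 (180, 210 and 176 CPM against 152, 211 and 244 CPM) and Ddit3 (18.7, 27.0 and 21 CPM against 14.3, 22 and 29.0 CPM), overlapped. The list had 13 of 16 members higher and a median of 0.33, and the median moved in 14 of 19 alternatives. It was 0.004 with the name set as a covariate, 0.11 with the TEC share as a covariate and 0.042 without Gata2 1, and 0.64 without Gata2 3 and 0.75 without WT 1. Secretory B lineage cells are rich in these chaperones as a rule, and plasma cell genes took 0.139%, 0.0644% and 0.106% of counts in WT and 0.125%, 0.213% and 0.127% under the Gata2 label, with overlapping groups. Their part in the difference was not tested.

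Cell cycle genes followed the library more than the label. G2 and mitosis genes took 0.427%, 0.306% and 0.508% of counts in WT and 0.436%, 0.579% and 0.376% under the Gata2 label, all 20 members were lowest in WT 2, and all 20 had a positive log2 fold change (median 0.33). S phase genes took 0.485%, 0.389% and 0.543% and 0.494%, 0.551% and 0.384%, with WT 2 and Gata2 3 the lowest pair for 18 of 20, as they were for late erythroid genes. The groups overlapped in both lists, and with the name set as a covariate their medians were -0.063 and -0.23. With a filter of 5 CPM the medians were 0.165 and 0.025.

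MHC class II genes, which present antigen on B cells and phagocytes, took 0.245%, 0.153% and 0.205% of counts in WT and 0.212%, 0.360% and 0.244% under the Gata2 label. All 10 members were highest in Gata2 2 and higher by the fit (median 0.44). Interferon gamma and GTPase genes had 16 of 16 members higher (median 0.46), cholesterol synthesis 14 of 14 (0.34), glycolysis 16 of 16 (0.30), ribosome biogenesis 18 of 18 (0.27) and oxidative phosphorylation 20 of 20 (0.17). These counts stand beside 78.2% of genes at 5 CPM or more that lay above 0. In each of these lists the shares overlapped between the labels. None had more than 1 member with non-overlapping groups, beside 1.24% of all genes tested. With the name set as a covariate the medians were -0.005 (interferon gamma), 0.017 (cholesterol), -0.19 (glycolysis), -0.12 (ribosome biogenesis), -0.20 (oxidative phosphorylation) and 0.14 (MHC class II). With a filter of 5 CPM they were, in the same order, 0.30, 0.18, 0.097, 0.099, 0.001 and 0.326.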

How the data were processed

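The deposited table held whole-number read counts per gene (45706 Ensembl IDs, 16 libraries). Per the submitters' processing notes, reads were trimmed with Trimmomatic 0.38 and aligned to mm10 with STAR 2.5.2b; the counter, strandedness and gene annotation, and which of the named kits made each library, were not given in the sources used here. Without the strand setting, antisense and overlapping genes, and near-identical copies such as Hba-a1 and Hba-a2 or Hbb-bs and Hbb-bt, may share counts. IDs were matched to GENCODE M21 symbols (45143 matched).

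Levels are CPM over the library's total. Fold changes come from edgeR 4.0.16 (R 4.3.3) on the deposited counts of the 6 libraries, with TMM scaling, filterByExpr, the robust quasi-likelihood fit and Benjamini-Hochberg adjustment over 36485 genes, called below 0.05. TMM factors ran from 0.728 to 1.43, and from 0.924 to 1.06 with a filter of 5 CPM. Shares and the overlap of groups were read without them. List shares were compared by two-sided exact permutation. Alternatives used DESeq2 1.42.0 and limma 3.58.1. The fit was tested on simulated data.

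Named genes are Gata2, the 24 of lowest p at 5 CPM or more with a proper symbol, and in each list those of highest level or lowest p; further list members are shown by role, and some genes are not reported here. The members and the 34 lists were chosen with earlier results of these data known. The libraries differed by more than sampling noise in every pair. At these totals, levels of a few hundredths of a CPM rest on few counts.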

Additional observations from a re-analysis of the deposited data

How the results depend on the processing

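The number of genes called was 0 in edgeR and 1 in DESeq2 (Sva), 0 in limma voom without quality weights, and 12016 in limma voom with them, where the weights ran from 0.221 (Gata2 3) to 5.13 (Gata2 2). It was 11 among the libraries named S35 to S37 alone and 182 among S38 to S40 alone, where 1 label is a lone library assumed to vary like the other label. In S38 to S40 the lone library is Gata2 3, the one with high Xist RNA and almost no Ddx3y RNA. Y-linked genes and Xist ranked first in that fit, so its count cannot be read by label alone. Their log2 fold changes were -11.02 (Ddx3y), -9.13 (Kdm5d), -8.25 (Uty) and 6.98 (Xist). Leaving out 1 library gave 0 to 4 calls, 4 without Gata2 3 (Ctsk, Sva, Igkv3-9 and C4b). Deviations from the group means had r of 0.56, -0.77 and 0.30 between same-numbered libraries, against -0.87 to 0.51 between the others. With 3 libraries per group these deviations cancel within each group, so the values cannot decide whether the numbers pair the libraries. A fit with the replicate number as a block called 12 genes, among them Y-linked genes such as Usp9y (log2 fold change -3.01).

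Gata2 had a log2 fold change of -0.016 with the TEC share as a covariate and of -0.30 without Gata2 1 (up to 0.68 with another library left out), against 0.35. The log2 ratio of shares among S38 to S40 alone was -5.22 for late erythroid and -0.28 for macrophage genes, against -2.02 and 0.47. List medians moved by more than their spread under some settings. With voom and quality weights they were 3.20 for eosinophil, 0.67 for monocyte, 1.399 for macrophage, 0.585 for B cell, 1.12 for T cell, 2.06 for NK cell and 0.75 for stroma genes. Under DESeq2 and under RLE scaling they were 0.12 for megakaryocyte and 0.66 for monocyte genes. A filter of 5 CPM gave -0.25 for megakaryocyte and 0.51 for stroma genes. Leaving out 1 library at a time gave medians of 0.0094 to 0.43 (stem), 0.51 to 2.59 (eosinophil), -0.96 to 0.85 (early granulocyte), -1.12 to 0.515 (late neutrophil), 0.047 to 0.79 (monocyte), 0.50 to 1.24 (macrophage), 0.0295 to 0.71 (T cell), -0.56 to 1.22 (NK cell) and -0.27 to 0.67 (stroma). The cause of these moves was not tested. The remaining 512 alternatives for the lineage lists, lineage shares and number of calls counted as unmoved. They lay within the standard deviation of the libraries around the main value or, for the number of calls, stayed at 0. This spread is wide, so a change of sign can count as unmoved. The late erythroid median of 0.40 with voom and quality weights did, as did changes of sign in 7 settings for late neutrophil and 8 for endothelium genes. For the 17 program lists the median moved in 67 further alternatives, most often for unfolded protein (14, from 0.004 to 0.75 over all settings), cholesterol synthesis (7), interferon gamma (6) and ribosome biogenesis (6).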
